A study of Homo sapiens with 12 samples.

Results

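The mRNAs of the G1 cyclins and of the kinases they activate were followed in WI-38 cells, a diploid fibroblast line from human lung. The members were taken by name as a family: the D cyclin genes CCND1, CCND2 and CCND3, the E cyclin genes CCNE1 and CCNE2, and the kinase genes CDK2, CDK4 and CDK6. They are 8 of the 57773 genes listed in the files, and all 8 were among the 21518 genes with enough counts to be tested. The family was chosen by name with earlier results of these libraries known, and the measured values behind that choice were above all the CCND2 mRNA levels with both silencing siRNAs. For this reason CCND2 is described without a test wherever an siRNA is compared with another siRNA.

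Bulk mRNA was sequenced from 12 libraries, 3 in each of 4 groups. In the first group, WI-38 cells transfected with the non-targeting siRNA siCtrl were kept for 8 days in medium with the vehicle DMSO and are called proliferating. In the other 3 groups, cells were transfected with siCtrl, siNTRK2 or siBDNF and cultured for 8 days with 50 µM etoposide, a topoisomerase II poison that breaks DNA and induces senescence. All siRNAs were used at 25 nM, each is a commercial pool of several siRNAs, and all 4 groups were transfected, so no group shows untransfected cells. NTRK2 encodes TrkB, the receptor of the neurotrophin BDNF. The senescent and the proliferating cells differ in etoposide and in growth state together, no group of proliferating cells received siNTRK2 or siBDNF, and the labels do not say whether the libraries of a group came from separate cultures. A general statement of the study says that its experiments were repeated independently with the groups handled side by side, but does not name these libraries, so the p-values measure the spread between libraries, of which a part may be technical.

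Entry into S phase is governed by 2 layers of cyclin-dependent kinase activity. D cyclins respond to growth factor signals and pair with CDK4 and CDK6, which begin to phosphorylate the retinoblastoma protein. Cyclin E with CDK2 carries this further, E2F factors are released, and genes of DNA replication are transcribed. In senescence the arrest is held by CDK inhibitors such as p21 and p16, and high cyclin D1 in cells that do not divide is a known trait of senescent fibroblasts.

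The libraries held 31567912 to 72328151 counts. Values below are normalized CPM, that is, counts scaled to the size of the library by the TMM method, given as mean ± SD over 3 libraries. A gene is said to have risen or fallen where edgeR's quasi-likelihood test gave a Benjamini-Hochberg adjusted p under 0.05 over all genes tested. The targeted genes were low with their siRNAs. NTRK2 had 0 counts in the 3 siNTRK2 libraries against 7 to 15 in the siCtrl-transfected senescent libraries, and BDNF mRNA fell from 162 to 47.1 CPM with siBDNF (log2 fold change -1.79, adjusted p = 1.72e-18). With siNTRK2, BDNF mRNA rose to 205 CPM (log2 fold change 0.33, adjusted p = 8.35e-06), so the siRNA groups differ from siCtrl in BDNF in opposite directions. All 12 fibroblast markers of a fixed list were tested, and their summed level lay between 23632 and 34800 CPM in every library, while 4 leukocyte markers summed to at most 1.33 CPM, 4 endothelial markers to at most 3.14 CPM and 5 epithelial markers to at most 57.5 CPM. Of 3 senescence markers, CDKN1A and GDF15 rose and LMNB1, which encodes lamin B1, fell in siCtrl-transfected senescent against proliferating cells (log2 fold changes 1.62, 2.52 and -4.20). In bulk RNA, fewer cells of a kind and less RNA per cell cannot be told apart.

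On GRCh37, the build of the count files, the D cyclin genes lie at chr11:69455924-69469242 (CCND1, plus strand), chr12:4378937-4414519 (CCND2, plus strand) and chr6:41902672-42018095 (CCND3, minus strand). CCNE1 lies at chr19:30302898-30315219 on the plus strand, and CCNE2 at chr8:95891998-95908906 on the minus strand. The kinase genes lie at chr12:56360565-56366573 (CDK2, plus strand), chr12:58141510-58149796 (CDK4, minus strand) and chr7:92234235-92465887 (CDK6, minus strand). Counts are per gene over all exons, so isoforms, including those of cyclin D1 and of CCND3, were not told apart. Several members share exons with a gene on the opposite strand, and the sources used here do not state whether reads were counted by strand. The shared exon length was 497 bases between CCND1 and LTO1, 1369 between CDK4 and TSPAN31, 1629 between CCNE2 and INTS8, and 565 between CDK2 and the lncRNA gene ENSG00000258554. CCND2-AS1, opposite CCND2, had at most 2 counts in any library. On the same strand as CCND2, the protein-coding gene ENSG00000285901 shares 999 exon bases with it. That gene is not among the genes counted, so reads from it could have been counted as CCND2.

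The question put first was how the G1 cyclins and kinases stand in senescent cells against proliferating cells. With siCtrl in both, D cyclin mRNAs were higher in senescent cells, CCNE2, CDK2 and CDK4 mRNAs were lower, CCNE1 rose slightly, and CDK6 was not called. Of the 8 mRNAs, 4 rose and 3 fell. In this comparison 58.1% of all genes tested were called (29.8% higher and 28.3% lower). Of the 8, 3 also changed by more than 1 on the log2 scale, as did 16.7% of all genes tested. The libraries of the 2 groups did not overlap for 7 of the 8 members, against 61.3% of all genes tested.

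**Figure D1:**
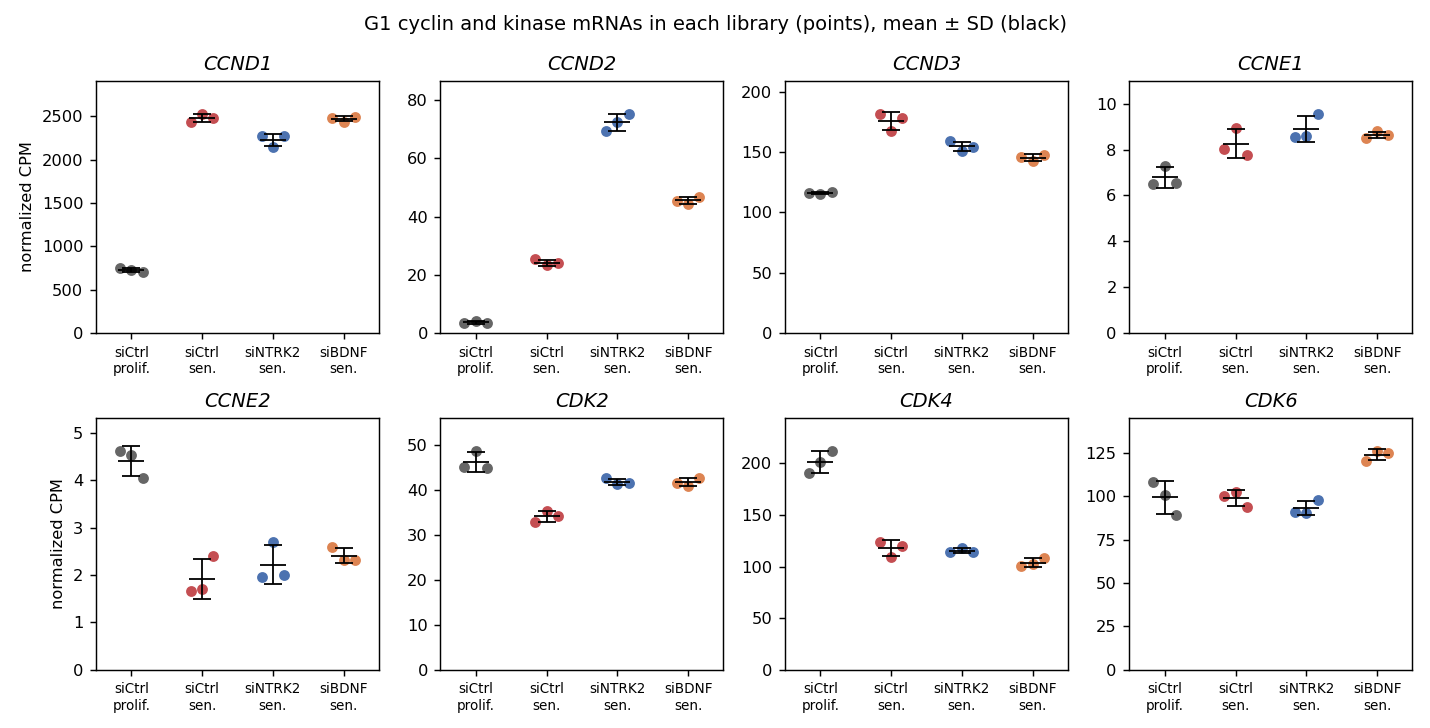
Normalized CPM (vertical axes, from 0) of the 8 mRNAs in each of the 12 libraries (coloured points), with the mean and SD of each group in black. CCND2 is at about 3 to 4 CPM in proliferating cells and at 23.2 to 25.3 CPM in siCtrl-transfected senescent cells. It is at 69.2 to 75.2 CPM in siNTRK2-transfected senescent cells. The CCND2 values with the silencing siRNAs chose the family. CDK6 stands highest in the 3 siBDNF libraries.

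Cyclin D1, the main D cyclin of fibroblasts, had the highest level of the family. CCND1 mRNA was at 756, 732 and 709 CPM in the 3 proliferating libraries and at 2429, 2528 and 2483 CPM in the siCtrl-transfected senescent libraries. All senescent libraries lay above all proliferating ones. The rise was 3.39-fold (log2 fold change 1.76, SE 0.0411, adjusted p = 2.18e-21). LTO1, whose exons overlap those of CCND1, rose with a log2 fold change of 1.65 (adjusted p = 3.8e-20), and its counts stayed between 12.3% and 13.7% of those of CCND1 in all 12 libraries.

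CCND1 differed little with the silencing siRNAs. It was at 2269, 2144 and 2270 CPM in the siNTRK2 libraries, all below the siCtrl-transfected senescent libraries, and fell by 0.15 on the log2 scale (SE 0.0399, adjusted p = 0.0065). With siBDNF it was at 2483, 2440 and 2496 CPM, all inside the range of siCtrl. That difference was 0.00 on the log2 scale (2 SE either side, -0.08 to 0.08, adjusted p = 0.962). Between the siRNAs, CCND1 was lower with siNTRK2 by a log2 difference of -0.15 (adjusted p = 0.00973), which without siNTRK2 replicate 2 was -0.12 (adjusted p = 0.0585). LTO1 did not pass the test with either siRNA (log2 fold changes -0.10 and -0.02, adjusted p = 0.118 and 0.827).

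CCND2 encodes cyclin D2, which is rare in many fibroblast cultures and abundant in other lineages such as lymphocytes. Its mRNA was at 3.36, 4.12 and 3.44 CPM in proliferating cells and at 25.3, 23.2 and 23.9 CPM in siCtrl-transfected senescent cells. The groups were far apart, a 6.56-fold rise (log2 fold change 2.71, SE 0.0774, adjusted p = 1.15e-19), the largest of the 8. With siNTRK2 the level was 69.2, 72.6 and 75.2 CPM, and with siBDNF it was 45.5, 44.3 and 46.8 CPM. All 3 libraries of each silencing siRNA lay above those of siCtrl, and those of siNTRK2 above those of siBDNF, so that no group overlapped another. In senescent cells CCND2 was thus 2.996-fold its siCtrl level with siNTRK2 (log2 1.58, SE 0.0616) and 1.89-fold with siBDNF (log2 0.92, SE 0.0618). These values chose the family. The folds, the SE and the lack of overlap with the siRNAs are therefore a description and no evidence of a difference. In raw counts, the level rested on 127 to 289 reads per library in proliferating cells and on 1347 to 4282 in senescent cells.

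Cyclin D3, the D cyclin found in most tissues, followed another order. CCND3 mRNA was at 116, 116 and 117 CPM in proliferating cells and at 182, 167 and 178 CPM in siCtrl-transfected senescent cells. The senescent libraries were all higher, by 1.51-fold (log2 fold change 0.60, SE 0.0439, adjusted p = 1.39e-11). It then fell with both siRNAs, in the direction opposite to that of CCND2. With siNTRK2 it was at 159, 151 and 154 CPM (log2 fold change -0.18, SE 0.0435, adjusted p = 0.00319). With siBDNF it was at 146, 142 and 147 CPM (log2 fold change -0.27, SE 0.0436, adjusted p = 6.06e-05). Neither range reached that of siCtrl. The siNTRK2 libraries lay above the siBDNF libraries by 0.09 on the log2 scale, which did not pass the test (adjusted p = 0.172). In every senescent group CCND3 lay above all proliferating libraries.

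**Figure D2:**
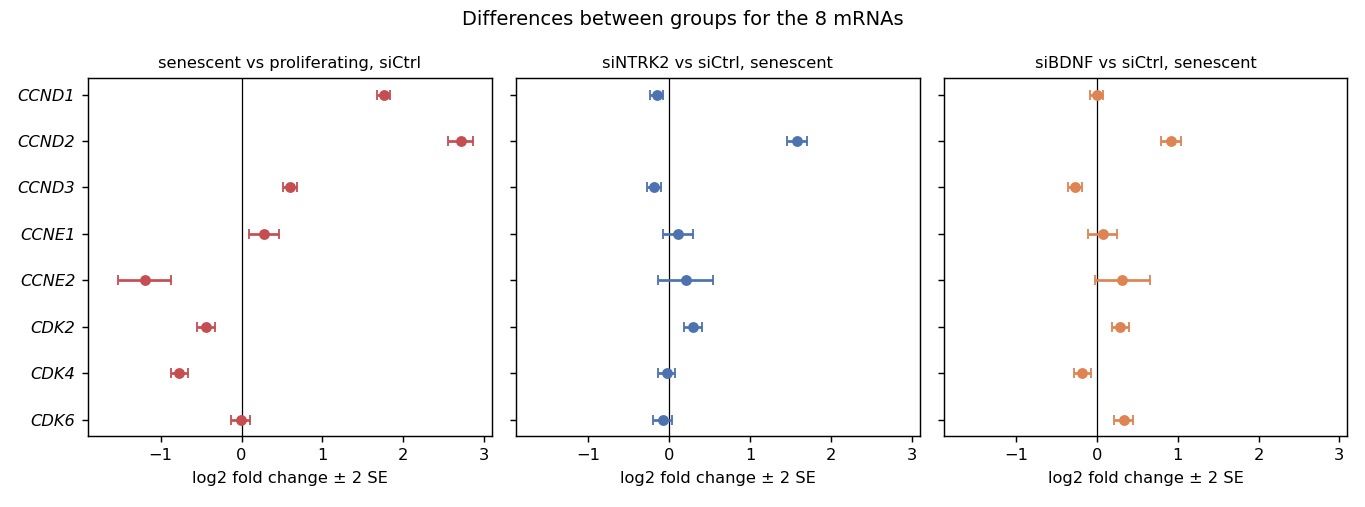
Log2 fold change (horizontal axes) of the 8 mRNAs in senescent against proliferating cells and with each silencing siRNA against siCtrl in senescent cells; points are the fitted values and bars span 2 SE either side. With siNTRK2 and siBDNF, CCND2 (1.58 and 0.92) stands to the right of the other mRNAs, which lie between -0.27 and 0.33. Those CCND2 values chose the family, so their bars are no test.

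The E cyclins, which activate CDK2 at the start of S phase, were scarce and moved in opposite directions. CCNE1 mRNA was at 6.51, 7.29 and 6.55 CPM in proliferating cells and at 8.03, 8.96 and 7.76 CPM in siCtrl-transfected senescent cells. The ranges lay close together without overlap, and the rise was 1.21-fold (log2 fold change 0.28, SE 0.0938, adjusted p = 0.0136). The call depended on single libraries: without siCtrl proliferating replicate 1 the log2 fold change was 0.25 (adjusted p = 0.0562), and without siCtrl senescent replicate 2 it was 0.21 (adjusted p = 0.0812). With siNTRK2 and siBDNF, CCNE1 was at 8.90 ± 0.569 and 8.64 ± 0.138 CPM (n = 3 each) and overlapped siCtrl (log2 fold changes 0.11 and 0.07, adjusted p = 0.453 and 0.692).

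CCNE2 mRNA was at 4.63, 4.54 and 4.06 CPM in proliferating cells and at 1.66, 1.71 and 2.41 CPM in siCtrl-transfected senescent cells. It fell 2.30-fold (log2 fold change -1.20, SE 0.163, adjusted p = 7.33e-07), with no overlap between the groups. INTS8, with which it shares exons, fell as well, by 0.60 on the log2 scale (adjusted p = 1.53e-07), and its counts were over 7 times those of CCNE2 in every library (725% at the lowest). With siNTRK2 CCNE2 was at 1.96, 2.70 and 2.01 CPM and with siBDNF at 2.59, 2.32 and 2.31 CPM. Both ranges overlapped siCtrl, and neither difference passed the test (log2 0.20 and 0.31, adjusted p = 0.454 and 0.22). As few as 85 reads stood behind a CCNE2 value, and its SE with siNTRK2, 0.171, was the widest of the 8, so that a change of up to 0.54 on the log2 scale lay within 2 SE.

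One stretch of promoter DNA is shown because CDK4 was the kinase mRNA with the largest difference between proliferating and senescent cells and because its promoter is rich in a motif of a known regulator. RefSeq promoter windows (GRCh38.p14, 250 bases before and 50 after a start site) were at hand for CCND3, CCNE1, CDK4 and CDK6. The motif searched was the E-box CACGTG, the site bound by MYC and its relatives, which reads alike on both strands and was chosen with the values known. The CDK4 window holds 3 E-boxes, starting at positions -216, -196 and -101 from the start site. Of 35116 promoter windows of the same length, 7.26% held at least 1 E-box, and 33 windows (0.094%) held at least 3. These shares are a description only, because gene and motif were both picked with the values known. The stretch below, chr12:57752448-57752560 of GRCh38.p14 read on the minus strand, covers positions -250 to -138 and lies outside every exon annotated on GRCh37, in an intron of 1 longer CDK4 transcript. The E-boxes are in capitals.
CDK4: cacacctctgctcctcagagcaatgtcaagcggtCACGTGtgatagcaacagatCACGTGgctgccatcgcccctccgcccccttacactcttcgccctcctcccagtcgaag
One CDK6 window held 1 E-box, and the windows of CCND3 and CCNE1 held none. The promoter motif set in the plan was not the E-box but the core of the E2F site (TT, then 2 bases that are each C or G, then CGC, on either strand). It was found in 4553 of the 35116 windows and in none of these members' windows.

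Among the kinases, CDK4 and CDK2 mRNAs fell in senescent cells and CDK6 did not pass the test. CDK4, the partner of D cyclins in most fibroblasts, was at 190, 201 and 212 CPM in proliferating cells and at 124, 109 and 120 CPM in siCtrl-transfected senescent cells, a 1.71-fold fall (log2 fold change -0.77, SE 0.0521, adjusted p = 2.9e-12). MYC, one of the factors that bind the E-box, fell from 43.5 to 33.2 CPM (log2 fold change -0.39, adjusted p = 5.71e-06), and its part in the CDK4 level was not tested. TSPAN31, which overlaps CDK4, fell by 0.41 on the log2 scale (adjusted p = 3.8e-07), and its counts were 48.8% of those of CDK4 in proliferating cells and 62.9% in siCtrl-transfected senescent cells.

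CDK4 was at 114, 118 and 114 CPM with siNTRK2, inside the siCtrl range (log2 fold change -0.03, adjusted p = 0.752). With siBDNF it was at 100, 103 and 109 CPM, below all 3 siCtrl libraries by a small margin, and fell by 0.18 on the log2 scale (SE 0.0524, adjusted p = 0.0139). This call was lost when library totals alone scaled the counts (-0.12, adjusted p = 0.0646). It was also lost without any 1 of 4 libraries: siCtrl senescent replicate 1 (-0.14, adjusted p = 0.107) or 3 (-0.17, adjusted p = 0.0657) and siBDNF replicate 1 (-0.16, adjusted p = 0.0793) or 2 (-0.18, adjusted p = 0.053). TSPAN31 with siBDNF fell by 0.17 (adjusted p = 0.0212), a call lost without the same libraries (adjusted p from 0.0776 to 0.117). MYC did not pass the test with either siRNA (log2 fold changes -0.08 and 0.00, adjusted p = 0.379 and 0.983).

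CDK2, the kinase of E cyclins and later of cyclin A, was at 45.2, 48.8 and 45.0 CPM in proliferating cells and at 32.9, 35.4 and 34.3 CPM in siCtrl-transfected senescent cells. The groups did not overlap, and the fall was 1.36-fold (log2 fold change -0.44, SE 0.0539, adjusted p = 1.44e-07). With siNTRK2 it was at 42.7, 41.3 and 41.6 CPM and with siBDNF at 41.6, 41.0 and 42.8 CPM. Both sets lay between the senescent and the proliferating siCtrl libraries without touching either. The rise in senescent cells was 1.22-fold with each siRNA (log2 fold changes 0.29 and 0.29, SE 0.0540 and 0.0541, adjusted p = 3.13e-04 and 3.69e-04). The siRNAs could not be told apart from each other, with a log2 difference of 0.00 and 2 SE reaching from -0.11 to 0.11. ENSG00000258554, the lncRNA gene opposite CDK2, had 11.3% to 17.7% of the counts of CDK2 over the libraries. It fell in senescent against proliferating cells (log2 fold change -0.49, adjusted p = 0.00157), and its differences with the siRNAs did not pass the test (log2 0.21 and 0.24, adjusted p = 0.258 and 0.202), although without siNTRK2 replicate 2 the difference with siNTRK2 was 0.37 (adjusted p = 0.0183).

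CDK6, the other partner of D cyclins, was at 108, 101 and 89.4 CPM in proliferating cells and at 100, 103 and 93.8 CPM in siCtrl-transfected senescent cells. The ranges overlapped, and 2 SE around the log2 difference of -0.01 reached from -0.13 to 0.10, its sign turning in 6 of 13 alternative settings. With siNTRK2 it was at 91.1, 90.5 and 98.2 CPM, again overlapping siCtrl (log2 fold change -0.08, adjusted p = 0.337). With siBDNF it was at 121, 126 and 125 CPM, above every other library of the study. This was a 1.26-fold rise over siCtrl (log2 fold change 0.33, SE 0.0572, adjusted p = 1.7e-04), and siNTRK2 was lower than siBDNF by 1.33-fold (log2 difference -0.41, SE 0.0573, adjusted p = 9.14e-06).

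The second question was how the family stood in senescent cells transfected with siNTRK2 or siBDNF. These libraries hold no other siRNA against either target. The paper reports that fewer cells survived with either siRNA, in early and in late senescence. The part of off-target effects and of cell loss in the differences was not tested. Leaving CCND2 aside, 3 of the other 7 members were called with siNTRK2 (CDK2 higher, CCND1 and CCND3 lower), where 21.1% of all genes tested were called (11.1% higher and 10.0% lower). With siBDNF 4 of 7 were called (CDK2 and CDK6 higher, CCND3 and CDK4 lower), where 20.5% of all genes tested were called (10.3% higher and 10.2% lower). Between the siRNAs 3 of 7 were called (CDK4 higher with siNTRK2, CCND1 and CDK6 lower), where 16.7% of all genes tested were called (8.84% higher and 7.86% lower). The libraries did not overlap for 3, 4 and 4 of the 7, against 32.8%, 37.3% and 34.2% of all genes tested. None of the 7 changed by more than 1 on the log2 scale in these comparisons, as did 0.957%, 0.609% and 1.16% of all genes tested. The comparisons of the siRNAs with siCtrl share the same 3 control libraries. The difference in CDK4 between the siRNAs (log2 0.15, adjusted p = 0.0463) was lost in 7 alternatives: with library totals alone (0.11), with a minimum of 10 counts in every library (0.14), without siNTRK2 replicate 1, 2 or 3 (0.16, 0.14 and 0.16) and without siBDNF replicate 1 or 2 (0.13 and 0.15), with adjusted p from 0.0504 to 0.182. Without siNTRK2 replicate 2, 1 of the 7 members was called.

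Levels of different genes were compared per kilobase of the canonical transcript. CCND1 was first of the 8 in every group, from 173 CPM per kb in proliferating cells to 585 in siCtrl-transfected senescent cells. CCND2 was last in proliferating cells (0.560 CPM per kb), rank 7 in siCtrl-transfected senescent cells (3.72), rank 6 with siBDNF (7.01) and rank 5 with siNTRK2 (11.1), where it passed CDK6 (8.00) and CCNE1 (4.55). CDK4 stood above CCND3 in proliferating cells (108 against 57.3 CPM per kb) and below it in the 3 senescent groups (63.2 against 86.7 with siCtrl). That order turned with the gene length: per kilobase of all exons joined, CDK4 stood above CCND3 in the senescent groups too (38.1 against 30.5 with siCtrl, 37.3 against 26.8 with siNTRK2 and 33.6 against 25.2 with siBDNF).

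**Figure D3:**
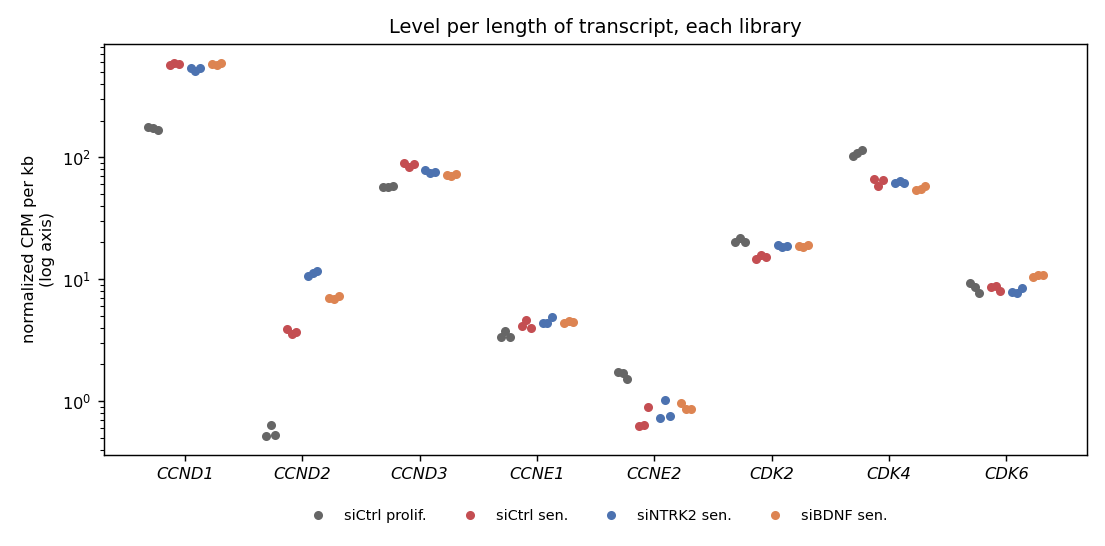
Normalized CPM per kilobase of canonical transcript (log axis) of the 8 mRNAs, with 1 point per library coloured by group. CCND1 stands above all others in every library, and CCND2 spans from 0.560 CPM per kb on average in proliferating cells to 11.1 with siNTRK2. The CCND2 values with the silencing siRNAs chose the family.

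The summed D cyclin level went from 231 ± 5.29 CPM per kb in proliferating cells to 676 ± 8.12 in siCtrl-transfected senescent cells, 613 ± 18.5 with siNTRK2 and 662 ± 8.37 with siBDNF (SD, n = 3 each). CCND1 made up 74.9% of it in proliferating cells and 86.6%, 85.7% and 88.1% in the senescent groups. CCND2 made up 0.243% in proliferating cells, 0.551% in siCtrl-transfected senescent cells, 1.82% with siNTRK2 and 1.06% with siBDNF, while the summed level with siNTRK2 was the lowest of the senescent groups. The summed level of CDK2, CDK4 and CDK6 went the other way, from 137 ± 5.17 CPM per kb in proliferating cells to 87.0 ± 3.48 in siCtrl-transfected senescent cells. CDK4 made up 78.7% of it in proliferating cells, 72.6% in siCtrl-transfected senescent cells, 69.9% with siNTRK2 and 65.5% with siBDNF. These shares depend on the length used for each gene and are given without a test.

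The other genes of the pathway were read from lists described by their counts, to be set beside the share of all genes tested. In siCtrl-transfected senescent against proliferating cells, 29.8% of all genes tested rose and 28.3% fell. Of 7 CDK inhibitor genes, 4 rose and 3 fell in siCtrl-transfected senescent cells (median log2 fold change 0.24, against 0.02 for all genes tested). CDKN1A, which encodes p21, rose from 936 to 2877 CPM (log2 fold change 1.62, adjusted p = 1.98e-20), and CDKN2B, which encodes p15, rose by 0.78. CDKN2A, which encodes p16 and ARF, rose from 30.8 to 36.4 CPM (log2 fold change 0.24, adjusted p = 0.00306). CDKN2C, which encodes p18, and CDKN1B, which encodes p27, fell (log2 fold changes -2.81 and -0.90). Of 13 genes of pocket proteins and E2F factors, 1 rose and 12 fell. The one that rose was the repressor E2F7 (log2 fold change 1.10, adjusted p = 2.61e-15), while RB1 fell from 39.1 to 30.1 CPM (-0.38), E2F1 from 10.3 to 6.46 CPM (-0.67) and E2F2 from 1.21 to 0.169 CPM (-2.83).

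Most genes downstream of the kinases were lower in senescent cells. Of 16 E2F targets of replication, 15 fell and 1, PCNA, was not called (median log2 fold change -1.70), with TK1, a thymidine kinase, down from 77.3 to 5.34 CPM and RRM2, a ribonucleotide reductase subunit, down from 88.6 to 12.5 CPM. PCNA, the sliding clamp of DNA polymerase, was at 95.3 against 87.4 CPM (log2 fold change 0.13, adjusted p = 0.0518), and was called higher in senescent cells in 6 alternatives, among them DESeq2 (0.14, adjusted p = 0.0287), library totals (0.16, adjusted p = 0.0113) and the fit without siCtrl proliferating replicate 3 (0.16, adjusted p = 0.0176). Of 11 genes of S phase and mitosis, 10 fell and 1 was not called (median -2.52), with the mitotic kinase genes PLK1 (-3.69) and AURKB (-3.24) among them. Among 16 genes of CDK activation and cyclin turnover, 3 rose and 8 fell. SKP2, which brings p27 to degradation, fell by 1.78, the CDK subunit gene CKS2 fell by 1.58, and CDC37, a chaperone of CDK4 and CDK6, rose by 0.60 on the log2 scale. Of 15 tested genes of factors that act on D cyclin genes, 5 rose and 8 fell, with FOS (1.27) and the Hedgehog factor gene GLI1 (-2.61) among the largest differences. Summed proliferation markers (MKI67, TOP2A, BUB1 and CENPF) went from 153 to 173 CPM per library in proliferating cells to 15.5 to 20.7 CPM in siCtrl-transfected senescent cells, and all 4 fell, as did 10 of the 12 fibroblast markers. Their part in the levels of the members was not tested.

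With siNTRK2, 11.1% of all genes tested rose and 10.0% fell, and the counts of the lists are to be read beside these shares. Of the 11 genes of S phase and mitosis, 8 rose and none fell (median log2 fold change 0.54, against 0.00 for all genes tested). PLK1 rose from 3.26 to 7.03 CPM (log2 fold change 1.11, adjusted p = 1.96e-08) and CDK1, the mitotic kinase, from 2.08 to 3.55 CPM (0.76, adjusted p = 8.37e-04). Both stayed far below proliferating cells, where PLK1 was at 42.3 CPM. Of the 16 E2F targets, 4 rose and 2 fell, with CDC6, a replication licensing factor, up by 0.79, RRM2 up by 0.46 and PCNA down by 0.30 on the log2 scale. Of the 7 CDK inhibitor genes, 2 rose and 2 fell. Among them, CDKN1A fell from 2877 to 2032 CPM (log2 fold change -0.50, adjusted p = 2.8e-09), and CDKN2B rose by 0.27. The paper, which measured p21 mRNA by RT-qPCR relative to ACTB mRNA, reports no change in it with either siRNA. Of the 13 genes of pocket proteins and E2F factors, 3 rose, among them E2F7 (0.38), and 1 fell. RB1 and E2F1 were not called (log2 fold changes 0.10 and -0.07, adjusted p = 0.401 and 0.695). Of the 16 genes of CDK activation and turnover, 3 rose and 1 fell, with SKP2 up by 0.41 and CKS2 by 0.36. Of the 15 factors acting on D cyclin genes, none rose and 3 fell, among them RELA, an NF-κB subunit gene (-0.32). All 4 proliferation markers rose, to a sum of 39.0 to 40.2 CPM per library, and 8 of the 12 fibroblast markers rose and 1 fell. The part of either marker list in the levels of the members was not tested.

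**Figure D4:**
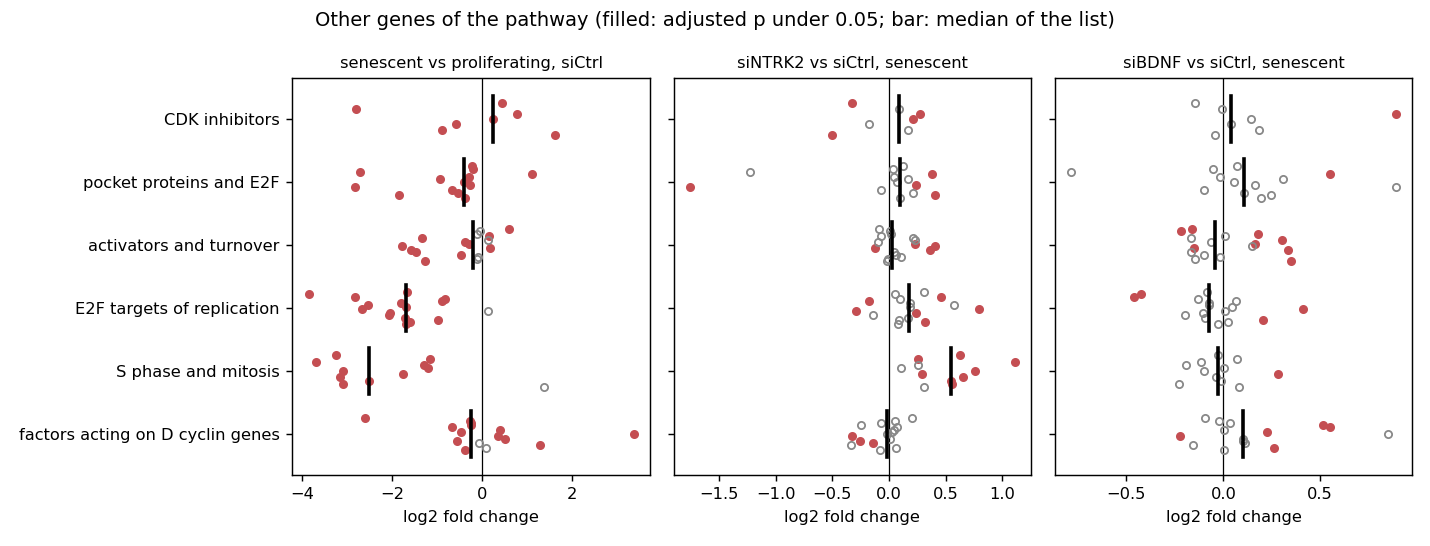
Log2 fold change (horizontal axes, scaled separately) of the genes of 6 pathway lists in 3 comparisons; filled points passed an adjusted p of 0.05, open points did not, and black bars mark the median of a list. The list of S phase and mitosis has its median at -2.52 in senescent against proliferating cells, at 0.54 with siNTRK2 and at -0.03 with siBDNF.

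With siBDNF, 10.3% of all genes tested rose and 10.2% fell, again the shares to set beside the lists. Only 1 of the 11 genes of S phase and mitosis was called (median log2 fold change -0.03). It was CCNF, named after its value was seen (0.28, adjusted p = 0.044), and that call was lost without any 1 of siCtrl senescent replicates 1 and 3 and siBDNF replicates 1, 2 and 3 (log2 fold changes 0.21, 0.29, 0.31, 0.23 and 0.29). It was also lost with no filter on low counts (adjusted p = 0.0647), with only the compared groups in the fit (adjusted p = 0.0557) and with a replicate block (adjusted p = 0.0513). Of the 16 E2F targets, 2 rose and 2 fell, the latter being RRM2 (-0.46) and TK1 (-0.43). Of the CDK inhibitors only CDKN2B was called, rising from 30.6 to 56.8 CPM (log2 fold change 0.89, adjusted p = 7.62e-11), and CDKN1A was at 2793 against 2877 CPM (log2 fold change -0.04, adjusted p = 0.548). E2F7, the 1 called gene among the pocket proteins and E2F factors, rose by 0.55. RB1 was not called (log2 fold change 0.19, adjusted p = 0.0792), but was called higher with library totals (0.25, adjusted p = 0.033), with no filter on low counts (0.20, adjusted p = 0.0229) and with only the compared groups in the fit (0.19, adjusted p = 0.0131). Of the 16 genes of CDK activation and turnover 5 rose and 3 fell, among them CKS2 (0.33) and the chaperone gene HSP90AB1 (-0.22). Of the 15 factors acting on D cyclin genes 4 rose and 1 fell, with LEF1 (0.55) and TCF7 (0.51), nuclear partners of β-catenin, up and RELA (-0.23) down. Proliferation markers summed to 20.4 to 23.7 CPM per library, with 2 of 4 called higher, and of the 12 fibroblast markers 3 rose and 6 fell.

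Set directly against siBDNF, siNTRK2 left PLK1 higher by 1.23, CDK1 by 0.86 and RRM2 by 0.92 on the log2 scale (adjusted p = 4.24e-09, 3.05e-04 and 5.31e-10). Of the 11 genes of S phase and mitosis 7 were higher and none lower (median log2 difference 0.56), and of the 16 E2F targets 10 were higher and 2 lower (median 0.26). Of all genes tested, 8.84% were higher and 7.86% lower. CDKN1A (-0.46), CDKN2B (-0.62) and TCF7 (-0.76) were lower with siNTRK2 (adjusted p = 9.38e-09, 1.61e-08 and 3.91e-06). These genes therefore differed between the siRNAs by the test of the difference itself, as CDK6 did among the members. CCND1 was called as well, but lost that call without siNTRK2 replicate 2 (-0.12, adjusted p = 0.0585).

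For each member, the genes with the most similar pattern were sought among 12449 protein-coding genes by Pearson's r of log2 CPM over the 12 libraries, which share groups and controls, so that any 2 genes with a large senescence difference correlate. CCND2 was most like DPP4 (r = 0.9931), a surface peptidase whose mRNA went from 57.9 CPM in proliferating cells to 113 with siCtrl, 183 with siNTRK2 and 159 with siBDNF in senescent cells. The 12 libraries include the CCND2 values that chose the family, so this likeness is a description only. CCND1 was most like its neighbour LTO1 (r = 0.9991), with which it shares exons. CCND3 was most like DAP (r = 0.9913), and CDK4 most like the tubulin genes TUBA1B and TUBB (r = 0.9956 and 0.9951). The best likeness was lower for CCNE2 (FABP5, r = 0.9769), CDK2 (PDLIM5, r = 0.9753), CCNE1 (CFAP54, r = 0.975) and CDK6 (TMEM87A, r = 0.9734).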

How the data were processed

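The authors deposited 1 file of raw counts per library, with whole numbers of reads per Ensembl gene. Per the labels and the methods, these counts came from poly(A) libraries made with a stranded kit, trimmed with cutadapt, aligned to hg19 with STAR 2.4.0j and counted with featureCounts 1.6.4. Whether featureCounts was run by strand is not given in the sources used here.

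Counts were analysed in R 4.3.3 with edgeR 4.0.16: filterByExpr over the 4 groups (21518 genes), TMM scaling, 1 term per group over all 12 libraries, the quasi-likelihood test and Benjamini-Hochberg adjustment. SE is the absolute log2 fold change over the square root of F. DESeq2 1.42.0 was run as an alternative, and the fit was tested on simulated data. Symbols matched 55538 of 57773 identifiers. Libraries of a group differed by more than sampling noise (chi-square per gene from 3.921 to 13.59), so none was counted as a duplicate. The floor was 3 counts, 0.0427 to 0.0916 normalized CPM, and covers counting error only. Likeness used log2 of CPM plus 0.1 in genes averaging at least 1 CPM.

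The members, lists and tests were chosen with earlier results of these data known, so their p-values are no independent evidence. Named genes were the members, up to 2 called genes per list, direction and comparison with the largest change, and RB1, E2F1, MYC, CDKN1A and CDKN2A, besides the silenced genes and genes that overlap a member. Of the genes so allowed, FOXO1 and others were left out of the text where a group lay at the floor or the call rested on 1 library.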

Additional observations from a re-analysis of the deposited data

How the results depend on the processing

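Values of low mRNAs (CCNE2, and NTRK2 near the floor) are limited by depth, and all tests by having 3 libraries a group. Requiring an absolute log2 fold change over 1 as well left 3604 genes in senescent against proliferating cells and 206 with siNTRK2, 131 with siBDNF and 250 between the siRNAs; 3 of the 8 members passed in the first comparison, and 0 of the 7 members other than CCND2 in each of the others.

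Leaving out 1 library at a time gave 2961 to 4822 called genes with siNTRK2 (2961 without siCtrl senescent replicate 1, against 4548). With siBDNF it gave 2988 to 4689 (2988 without siBDNF replicate 2, against 4412). Between the siRNAs it gave 2287 to 3269 called genes (2287 without siBDNF replicate 3, against 3595) and 1 to 3 called members. In such fits the smaller group is assumed to vary like the others. Scaled by library totals alone, calls with siBDNF were 3139 higher and 1388 lower (2227 and 2185 with TMM), and between the siRNAs 1349 higher and 2227 lower (1903 and 1692 with TMM).

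Signs turned only for differences that had not been called. CDK6 in senescent against proliferating cells was 0.0070 with DESeq2 size factors, 0.025 with library totals, 0.024 with at least 10 counts in every library, 0.0072 with DESeq2, and -0.079 to 0.053 leaving out 1 library. CDK4 with siNTRK2 ranged from -0.082 to 0.0099 leaving out 1 library. With siBDNF, library totals gave 0.053 for CCND1, 0.015 for CDKN1A and 0.038 for LTO1, no filter gave 0.0067 and at least 10 counts 0.0051 for CCND1, and leaving out 1 library gave -0.019 to 0.0098 for CCND1 and -0.031 to 0.040 for MYC. Between the siRNAs, CDK2 was -0.037 with library totals, -0.0073 with at least 10 counts and -0.013 to 0.020 leaving out 1 library, and CCNE1 was -0.013 to 0.069. The cause was not tested.

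The groups share replicate numbers. Same-numbered libraries did not deviate together (correlations from -0.0396 to 0.0254), so no large shared shift was seen. These correlations cannot tell whether same-numbered libraries were prepared side by side. A fit with the replicate block called 12488, 4553, 4434 and 3621 genes in the 4 comparisons and changed no call of a member.

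Shares within a family moved with the gene length used. Without division by length, CCND1 made up 85.9% of the D cyclins in proliferating cells and 92.5%, 90.8% and 92.8% in senescent cells with siCtrl, siNTRK2 and siBDNF, CCND2 0.427%, 0.901%, 2.95% and 1.71%, and CDK4 58.0%, 47.0%, 46.1% and 38.5% of the kinases. With the union of exons, chosen after seeing the data, CCND1 made up 88.2%, 93.9%, 92.9% and 94.4%, CCND2 1.04% with siBDNF, and CDK4 76.4%, 69.3%, 67.0% and 61.6%. The order of the groups in CCND2 and CDK4 shares was kept.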
